A study of Mus musculus with 18 samples.

Results

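H3K27me2, histone H3 dimethylated at lysine 27, was compared with the monomethylated form, H3K27me1, along the genome of untreated E14 mouse embryonic stem cells. The comparison rests on 4 of the 18 libraries of the series, namely the 2 H3K27me1 and the 2 H3K27me2 libraries that the labels describe as untreated. E14 is an established mouse embryonic stem cell line. All libraries used here came from cells grown in 2i/LIF, a serum-free condition in which CHIR99021 inhibits GSK3, PD0325901 inhibits MEK and the cytokine LIF is supplied. The medium carried light, medium or heavy arginine and lysine, and no drug was added to these groups. Chromatin was sheared and precipitated without a spike-in, with Active Motif antibody 61015 for H3K27me1 and Cell Signalling antibody 9728 for H3K27me2. The 6 untreated libraries for H3K27me3, H3K36me2 and H3K36me3, 2 for each mark, served as separate measurements of the surrounding chromatin. No label says that the replicates came from separate cultures, so the p-values measure the spread between these libraries, which may be technical.

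Lysine 27 of histone H3 is methylated in steps by Polycomb repressive complex 2 (PRC2), whose core subunits are EED, SUZ12 and the methyltransferase EZH2 or EZH1. The trimethylated form is known for the promoters of silent developmental genes, the dimethylated form for wide stretches of silent and intergenic chromatin, and the monomethylated form for the bodies of transcribed genes. Lysine 36 carries other marks. SETD2 deposits H3K36me3 in transcribed gene bodies, NSD enzymes deposit H3K36me2 more widely, and methylated lysine 36 on a histone tail is known to hinder PRC2 on that same tail.

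Every value below is a level, the mean number of reads per 1 kb window of a feature divided by that library's own mean over the autosomes, so a level of 1 is the autosomal mean. A log2 ratio is the difference, H3K27me2 minus H3K27me1, of the mean log2(level + 0.05). No input library was used, and the 2 antibodies differ, so the ratio compares where each mark lay and not how much of it there was. A promoter is the 2 kb around an annotated gene start, a gene body runs from 1 kb after the start to the gene end, and an intergenic bin is a 10 kb stretch at least 1 kb from any annotated gene. Features with a mean level of at least 0.1 were tested with limma, which left 16009 promoters, 17496 gene bodies and 91993 intergenic bins, and calls were made where the adjusted p (Benjamini-Hochberg) was under 0.05.

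The H3K27me1 libraries held 40.7 and 33.0 M reads and the H3K27me2 libraries 37.0 and 46.3 M, or 17.2 to 24.3 reads per autosomal window. Read numbers given below for a feature are sums over its windows. A read can count in more than 1 window, on average in 1.32 in each of these libraries. Replicates ranked gene bodies alike, with Spearman coefficients over the 17496 bodies of 0.939 for H3K27me1 and 0.968 for H3K27me2. Over promoters the H3K27me1 replicates ranked the 16009 features less alike, at 0.668, against 0.918 for H3K27me2. H3K27me1 replicate 1 also lay above replicate 2 at promoters, by a median of 0.51 on the log2 scale. H3K36me3 over gene bodies was used to check the cell type. All 8 embryonic stem cell markers with a measured body lay above the median body (2.61 to 7.83 against 2.09), and all 4 fibroblast markers lay below it (0.130 to 2.01). Of the other markers, 2 of 4 neural, 0 of 4 endoderm and 1 of 3 mesoderm genes lay above it.

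The 4 promoters below show the contrast at its widest, the first pair higher in H3K27me1 and the second pair higher in H3K27me2. Each is the RefSeq sequence from 250 bases before to 50 bases after the gene start (build GRCm38.p6), with CG dinucleotides in capitals.
Ccnb2 (chr9:70421505-70421804, minus strand): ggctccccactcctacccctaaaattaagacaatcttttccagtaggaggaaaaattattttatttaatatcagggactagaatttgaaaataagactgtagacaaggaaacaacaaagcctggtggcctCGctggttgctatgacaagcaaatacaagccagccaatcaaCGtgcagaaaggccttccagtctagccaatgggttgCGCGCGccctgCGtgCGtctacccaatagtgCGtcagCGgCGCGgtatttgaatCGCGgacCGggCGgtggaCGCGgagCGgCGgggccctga
Pes1 (chr11:3963725-3964024, plus strand): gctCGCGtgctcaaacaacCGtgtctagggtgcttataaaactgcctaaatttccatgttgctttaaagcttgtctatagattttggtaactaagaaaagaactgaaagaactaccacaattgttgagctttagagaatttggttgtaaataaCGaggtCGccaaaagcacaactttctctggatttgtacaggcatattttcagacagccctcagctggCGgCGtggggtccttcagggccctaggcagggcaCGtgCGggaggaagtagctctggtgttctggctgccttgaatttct
Vcan (chr13:89742463-89742762, minus strand): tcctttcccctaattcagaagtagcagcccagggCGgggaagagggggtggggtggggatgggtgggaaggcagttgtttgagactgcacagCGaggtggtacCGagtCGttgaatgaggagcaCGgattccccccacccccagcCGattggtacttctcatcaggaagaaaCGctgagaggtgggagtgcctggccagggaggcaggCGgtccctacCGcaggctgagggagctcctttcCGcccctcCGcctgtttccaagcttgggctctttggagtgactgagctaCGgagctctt
Ccdc38 (chr10:93540382-93540681, plus strand): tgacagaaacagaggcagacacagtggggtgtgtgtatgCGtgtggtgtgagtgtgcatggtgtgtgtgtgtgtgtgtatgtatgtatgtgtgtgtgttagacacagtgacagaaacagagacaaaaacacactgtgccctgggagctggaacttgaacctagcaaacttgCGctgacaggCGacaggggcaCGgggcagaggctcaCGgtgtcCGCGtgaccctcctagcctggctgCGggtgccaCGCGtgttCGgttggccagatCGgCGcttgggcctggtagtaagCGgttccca

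The motif CG, which reads the same on both strands, stood 19 times in the Ccnb2 window, 9 times in Pes1, 12 times in Vcan and 14 times in Ccdc38. It was present in 95.1% of all tested promoter windows of this length, with a median of 14. Ccnb2 encodes cyclin B2, which acts in mitosis. Its promoter had H3K27me1 levels of 3.01 and 1.83 and H3K27me2 levels of 0.180 and 0.205. Pes1 encodes a factor of ribosome biogenesis, and its promoter had H3K27me1 levels of 1.25 and 0.783, with only 2 and 3 H3K27me2 reads in the whole 2 kb. Vcan encodes versican, a proteoglycan of the extracellular matrix, and its promoter ran the other way, with H3K27me1 at 0.400 and 0.145 and H3K27me2 at 1.41 and 1.17. The Ccdc38 promoter had H3K27me1 levels of 0.470 and 0.0870 and H3K27me2 levels of 1.08 and 1.05.

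Class by class, both marks had similar median levels. The median gene body had H3K27me1 levels of 1.35 and 1.25 and H3K27me2 levels of 1.30 and 1.26. The median promoter had H3K27me1 levels of 1.13 and 0.783 and H3K27me2 levels of 0.950 and 0.883. The median intergenic bin had H3K27me1 levels of 0.738 and 0.835 and H3K27me2 levels of 0.719 and 0.789. By these medians the libraries of the 2 marks overlapped in all 3 classes. On the log2 scale the class medians of H3K27me2 differed from those of H3K27me1 by -0.02 at gene bodies, -0.04 at promoters and -0.06 at intergenic bins. The exact two-sided permutation p was 1, 1 and 0.667, and 2 libraries against 2 cannot go below 0.333. By the mean over bodies in place of the median, both H3K27me2 libraries lay below both H3K27me1 libraries, with a difference of -0.19 (exact permutation p = 0.333).

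Gene bodies were called in both directions, and the largest group was not called. H3K27me1 was higher over 5119 of the 17496 bodies (29.3%) and H3K27me2 over 4395 (25.1%), while 7982 were not called. The excess of H3K27me1 was the deeper, with 3353 of its calls at 2-fold or more and 994 at 4-fold or more, against 350 and 0 for H3K27me2. The median log2 ratio was -1.28 over the bodies higher in H3K27me1 and 0.67 over those higher in H3K27me2, with a median standard error of 0.18 over all bodies. Of all calls, 46.2% were higher in H3K27me2, a share that became 21.9% when libraries were scaled to their median over autosomal windows with reads, called median scaling below (1269 and 4520 calls) and 58.7% under quantile normalisation (7020 and 4945 calls). Without H3K27me2 replicate 1 the bodies higher in H3K27me2 numbered 1058, and without H3K27me2 replicate 2 they numbered 2128.

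**Figure D1:**
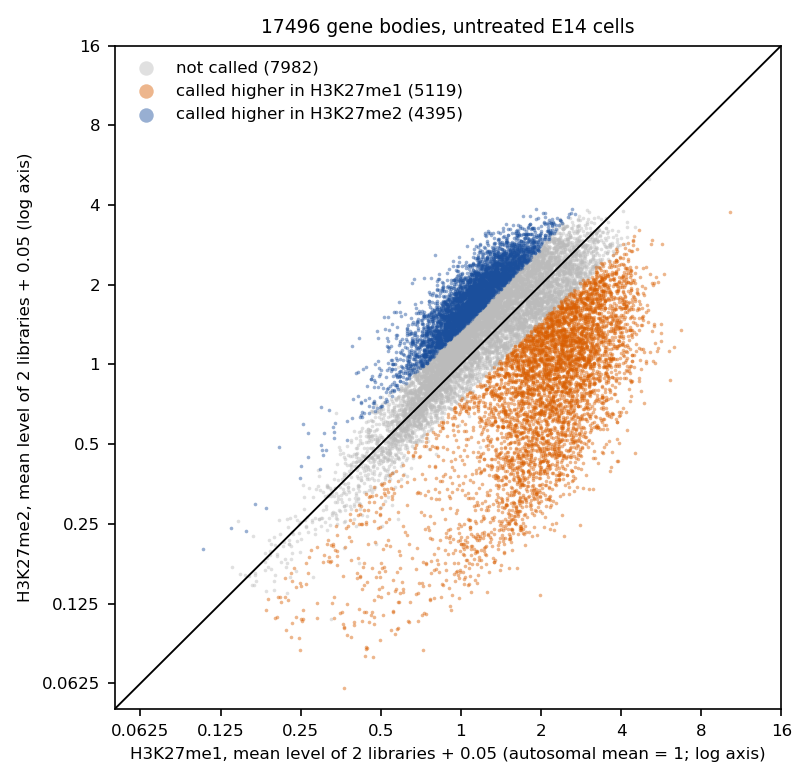
Mean H3K27me1 level (x axis) against mean H3K27me2 level (y axis) of each of the 17496 gene bodies, with 0.05 added and both axes logarithmic; colours mark bodies higher in H3K27me2 (4395), higher in H3K27me1 (5119) or not called. Bodies higher in H3K27me1 reach far below the diagonal (994 at 4-fold or more), and those higher in H3K27me2 stay close above it (0 at 4-fold).

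Ptcd3, a mitochondrial translation factor on chr6:71880638-71908773, had H3K27me1 at 1.89 and 1.27 and H3K27me2 at 0.108 and 0.132 over 27 windows (log2 ratio -3.23 ± 0.21 SE, limma adjusted p = 5.7e-06). Ptcd3 was among the 10 named bodies with the largest excess of H3K27me1, as were Snapc5, which acts in small nuclear RNA transcription (-3.53), Mrps14, a mitochondrial ribosomal protein (-3.41), and Eif3f, a translation initiation factor (-3.15). Il3ra, a cytokine receptor subunit, was another (-3.27), with H3K27me1 at 5.39 and 3.51 and H3K27me2 at 0.475 and 0.349. Over the body of Pycard, an adaptor protein of the inflammasome, one H3K27me2 library held 1 read and the other 7, against 113 and 42 reads for H3K27me1. In each of these genes the lower H3K27me1 library lay above the higher H3K27me2 library, which the rule for naming them required. H3K36me3 was high over them, at 5.80 over Ptcd3, 6.25 over Snapc5 and 11.7 over Eif3f, and H3K27me3 was low, at 0.0519 over Ptcd3 and 0.0869 over Eif3f.

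Short genes stood among the named bodies at the H3K27me2 end. Jun, a subunit of the AP-1 transcription factor on chr4:95049036-95052222, had H3K27me1 at 0.611 and 0.116 and H3K27me2 at 1.44 and 0.986 (1.91 ± 0.47 SE, limma adjusted p = 0.00571), a call lost under median scaling (limma adjusted p = 0.088). Fos, its partner in AP-1, had H3K27me1 at 0.752 and 0.464 and H3K27me2 at 2.26 and 1.70 (1.65 ± 0.23). Tnfrsf25, a death domain receptor on chr4:152115528-152120119, had H3K27me1 at 0.799 and 0.696 and H3K27me2 at 2.50 and 2.59 (1.70 ± 0.18, limma adjusted p = 1.58e-05). The libraries of the 2 marks do not overlap in these 3 genes, by the same rule. Gbx2, a homeobox factor, Id4, an inhibitor of bHLH factors, and Foxd3, a forkhead factor of pluripotent and neural crest cells, followed at 1.65, 1.59 and 1.57. Many of these bodies span only 2 windows, and the 350 bodies at 2-fold or more had a median length of 5.90 kb, against 22.7 kb for all bodies and 19.4 kb for those at 2-fold or more in the other direction.

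The 2 sets of called bodies sat in different surroundings. Bodies higher in H3K27me1 had a median H3K36me3 level of 4.53 and a median H3K27me3 level of 0.106. Bodies higher in H3K27me2 had a median H3K36me3 level of 1.72, close to the 2.09 of all bodies, with H3K27me3 at 2.46 and H3K36me2 at 2.44. Across the 17496 bodies the log2 ratio followed H3K27me3 (Spearman 0.851) and H3K36me2 (0.625) upwards and H3K36me3 downwards (-0.336), and had almost no relation to gene length (-0.020). Taken singly, H3K27me1 rose with H3K36me3 (0.808) and H3K27me2 with H3K36me2 (0.818). These coefficients run across genes, which are not independent replicates, and the marks share the cell line and the mappability of each gene.

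Ordered by H3K27me3, the bodies passed from a large excess of H3K27me1 to a moderate excess of H3K27me2. In the lowest decile of H3K27me3 the median body had H3K27me1 at 1.89 and 1.40 and H3K27me2 at 0.400 and 0.433, and 96.4% of its bodies were called higher in H3K27me1. The median log2 ratio rose from -1.86 there through -0.71 in decile 3 and 0.03 in decile 5 to 0.62 in decile 9, where 71.0% were called higher in H3K27me2. H3K27me2 itself was lowest in decile 1, stood at 1.58 and 1.37 in decile 4 and at 1.63 and 1.61 in decile 9, while H3K27me1 came down from 2.52 and 1.91 in decile 2 to 1.04 in both libraries. In the decile with the most H3K27me3 both marks were lower, at 0.940 and 0.800 for H3K27me1 and 1.33 and 1.32 for H3K27me2, and the ratio was 0.54.

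Ordered by H3K36me3, the ratio rose and then fell. It was -0.05 in the lowest decile, reached 0.49 in decile 4, where 52.7% of bodies were called higher in H3K27me2, and ended at -1.04 in the highest, where 68.9% were called higher in H3K27me1. H3K27me1 climbed through the deciles to 3.36 and 2.52, whereas H3K27me2 reached 1.68 and 1.41 in the highest. The H3K27me1 replicates were furthest apart in that decile, and the lower of them still lay above both H3K27me2 libraries. Ordered by H3K36me2, the ratio was lowest in decile 2, at -1.05, and highest in the last, at 0.70, where the median body had H3K27me1 at 1.38 and 1.23 and H3K27me2 at 2.30 and 1.99.

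**Figure D2:**
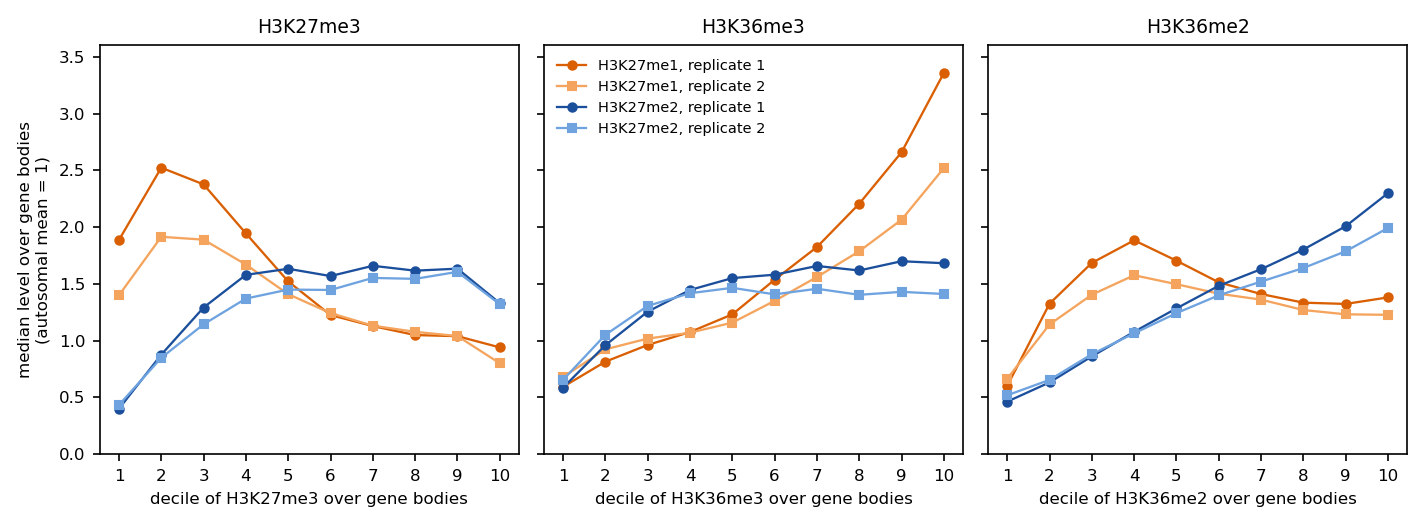
Median level of each library over gene bodies (y axis, autosomal mean = 1) in deciles of each of the other marks (x axis, 1 lowest to 10 highest), with 1 line per library. Along H3K27me3, H3K27me1 falls from decile 2 on and H3K27me2 rises from 0.400 and 0.433 in decile 1, and H3K27me1 reaches 3.36 and 2.52 in the highest decile of H3K36me3, above H3K27me2 at 1.68 and 1.41.

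H3K36me3 and H3K27me3 were then taken jointly. Bodies were split into terciles by H3K36me3 and by H3K27me3. The 3273 bodies high in H3K36me3 and low in H3K27me3 had H3K27me1 at 2.86 and 2.14 and H3K27me2 at 1.04 and 0.952, and 91.9% were called higher in H3K27me1. In the same H3K36me3 tercile, the 650 that were also high in H3K27me3 had H3K27me1 at 1.51 and 1.29 and H3K27me2 at 2.60 and 2.17, and 77.5% were called higher in H3K27me2. The order of the marks was thus opposite in these groups of the tercile. Their H3K36me3 was not the same, with a replicate 1 median of 5.84 in the former and 4.49 in the latter and the same order in replicate 2, and its part in the result was not tested. Between them, 1909 bodies high in H3K36me3 and intermediate in H3K27me3 were high in both marks, at 2.38 and 2.00 for H3K27me1 and 2.44 and 1.99 for H3K27me2, with a median log2 ratio of -0.01. The 958 bodies low in both H3K36me3 and H3K27me3 were low in both forms, at 0.727 and 0.761 for H3K27me1 and 0.488 and 0.534 for H3K27me2. Of these, 41.1% were called higher in H3K27me1 and 0.731% in H3K27me2, with a median log2 ratio of -0.38.

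Along genes of at least 20 kb, the 2 marks differed in how they filled the body. In the 1144 such genes with high H3K36me3 and low H3K27me3, H3K27me1 was 1.04 ± 0.47 (SD, n = 2) in the first 1 kb after the start and 2.35 ± 0.45 at 9.5 kb. It went on rising along the gene, from 1.60 ± 0.41 in the first of 10 equal parts to 2.87 ± 0.50 in the last. H3K27me2 rose far less over the same genes, from 0.821 ± 0.047 in the first part to 1.25 ± 0.12 in the last. The H3K27me1 replicates stood apart throughout, with 1.37 and 0.708 in the first 1 kb. In the 836 genes with low H3K36me3 and high H3K27me3 the order was reversed and flatter, with H3K27me1 going from 0.828 to 1.01 and H3K27me2 from 1.12 to 1.37. In the 105 genes high in both, H3K27me2 was above H3K27me1 in every part along the gene. The levels were 2.10 against 1.32 in the first part and 2.42 against 1.75 in the last.

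**Figure D3:**
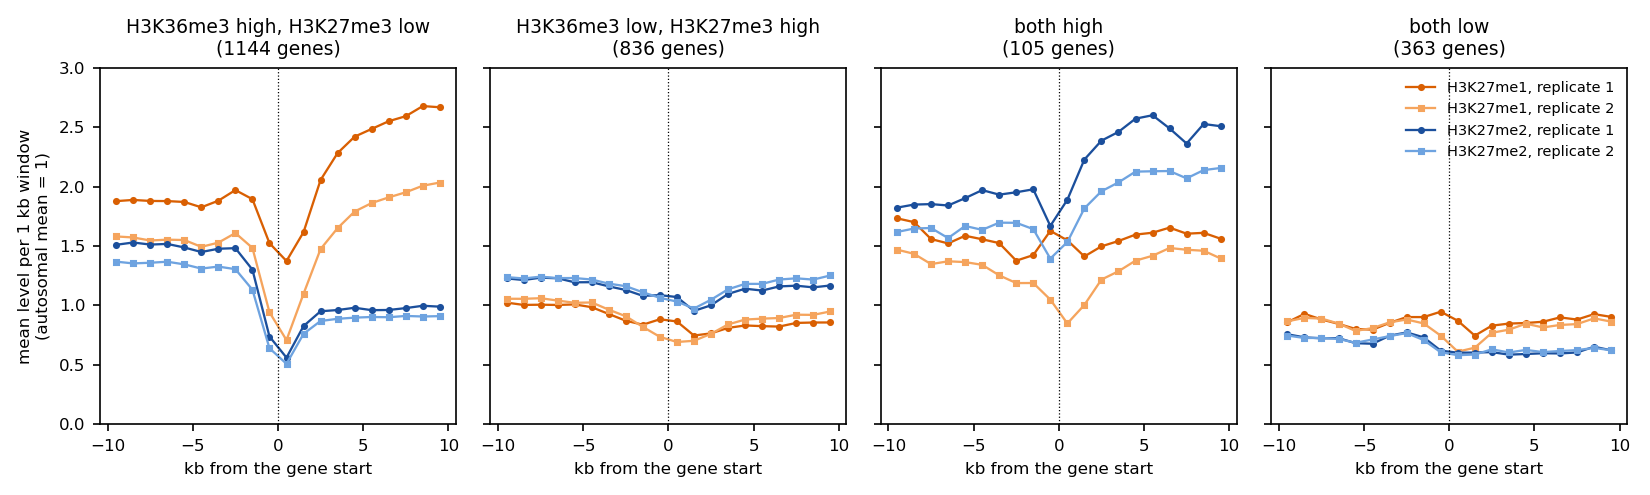
Mean level per 1 kb window (y axis, autosomal mean = 1) by distance from the gene start in kb (x axis) for genes of at least 20 kb in 4 classes by H3K36me3 and H3K27me3, with 1 line per library. In the H3K36me3-high, H3K27me3-low class both H3K27me1 lines rise from 1.37 and 0.708 just after the start, while both H3K27me2 lines stay lower; in the 2 classes high in H3K27me3 the H3K27me2 lines lie above in the body.

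Genes for general cell functions were mostly called higher in H3K27me1 than in H3K27me2. In the lists below, the counts are read against the 29.3% of all bodies higher in H3K27me1, the 25.1% higher in H3K27me2 and the median log2 ratio of 0.07 over all bodies. Spliceosome core genes were higher in H3K27me1 in 24 of 26 bodies and in H3K27me2 in none, with a median ratio of -2.16 and library medians of 3.08 and 2.24 against 0.539 and 0.552. The cytosolic ribosomal protein genes gave 41 of 43 (median -2.03), with lower levels of both marks, 0.999 and 0.522 for H3K27me1 and 0.103 and 0.164 for H3K27me2. Rps19, a subunit of the small ribosomal particle, held 81 and 54 H3K27me1 reads over its body and 5 and 7 H3K27me2 reads. Of the 71 ribosomal protein genes, the rest lacked a body long enough or a level high enough to be tested.

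Other groups of widely expressed genes followed. Proteasome subunit genes were higher in H3K27me1 in 32 of 37 bodies (median -1.40), NADH dehydrogenase subunit genes in 26 of 33 (-1.29), and DNA replication licensing genes in 25 of 29 (-1.95). Among the latter Mcm4, a subunit of the replicative helicase, had H3K27me1 at 2.74 and 1.82 and H3K27me2 at 0.294 and 0.388. Single members went the other way. Gins2, a partner of that helicase, had H3K27me1 at 1.47 and 1.32 and H3K27me2 at 3.62 and 2.68 (1.14, limma adjusted p = 0.000648), although its H3K36me3 level was 8.67. Psmb9, the immunoproteasome subunit, had H3K27me1 at 0.705 and 0.682 and H3K27me2 at 1.03 and 1.20, with H3K27me3 at 7.16, a call lost under median scaling (limma adjusted p = 0.0591). Of the 17 glycolysis genes 10 were higher in H3K27me1 and 3 in H3K27me2. Aldoa, the broadly expressed aldolase, stood at -3.14, and Eno2, the neuronal enolase, at 1.11 with H3K27me1 at 0.898 and 0.819 and H3K27me2 at 1.97 and 1.85.

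The genes for PRC2 and for the lysine 36 enzymes were themselves mostly called higher in H3K27me1. PRC2 subunit genes were higher in H3K27me1 in 7 of 10 bodies and in H3K27me2 in 1 (median -1.50). Suz12, on chr11:79993106-80034123, had H3K27me1 at 1.28 and 0.924 and H3K27me2 at 0.0834 and 0.115 (-2.94 ± 0.21 SE, limma adjusted p = 5.7e-06). Eed had H3K27me1 at 1.79 and 1.23 and H3K27me2 at 0.164 and 0.260 (-2.58). Ezh2, the catalytic subunit, had H3K27me1 at 2.01 and 1.55 and H3K27me2 at 0.348 and 0.443 (-2.04). Over all 17496 bodies, both H3K27me1 libraries lay above both H3K27me2 libraries in 6467 and below both in 7323. The former held for each of these core subunit genes. The PRC2 member higher in H3K27me2 was Phf19, an accessory subunit, at 0.62 (limma adjusted p = 0.0447), with H3K27me3 at 4.44. That call was lost under median scaling (limma adjusted p = 0.245). Ezh1 was not called at 0.15 (limma adjusted p = 0.481). Of 11 tested genes for H3K36 methyltransferases and demethylases, 6 were higher in H3K27me1, among them Setd2 (2.39 and 1.89 against 0.688 and 0.678) and Nsd1 (1.97 and 1.39 against 0.199 and 0.239). Kdm2b, a lysine 36 demethylase, was the member higher in H3K27me2 (0.59), a call lost under median scaling (limma adjusted p = 0.135).

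Pluripotency genes leaned towards H3K27me1, with exceptions. Of 21 naive pluripotency gene bodies, 15 were higher in H3K27me1 and 2 in H3K27me2 (median -1.22). Under quantile normalisation these counts were 9 and 3, beside 4945 and 7020 of all 17496 bodies, with a median of -0.59. Tfcp2l1, a transcription factor of the naive state, had H3K27me1 at 2.22 and 1.50 and H3K27me2 at 0.178 and 0.285 (-2.76 ± 0.24 SE, limma adjusted p = 6.38e-06). Pou5f1, which encodes OCT4, had little of either, with H3K27me1 at 0.729 and 0.305 and H3K27me2 at 0.128 and 0.0513 (-1.97), a call lost under quantile normalisation (limma adjusted p = 0.0656). Nanog was at 0.604 and 0.564 against 0.403 and 0.428, a small difference (-0.44, limma adjusted p = 0.0487) that became 0.05 under quantile normalisation (limma adjusted p = 0.683). Esrrb, an orphan nuclear receptor, was not called, at 1.25 and 0.957 against 1.20 and 1.06. Dppa3, which protects maternal methylation after fertilisation, went the other way, with H3K27me1 at 0.870 and 0.667 and H3K27me2 at 2.18 and 1.91 (1.36), as did Lin28a, an RNA-binding protein (0.53), whose call was lost under median scaling (limma adjusted p = 0.128).

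**Figure D4:**
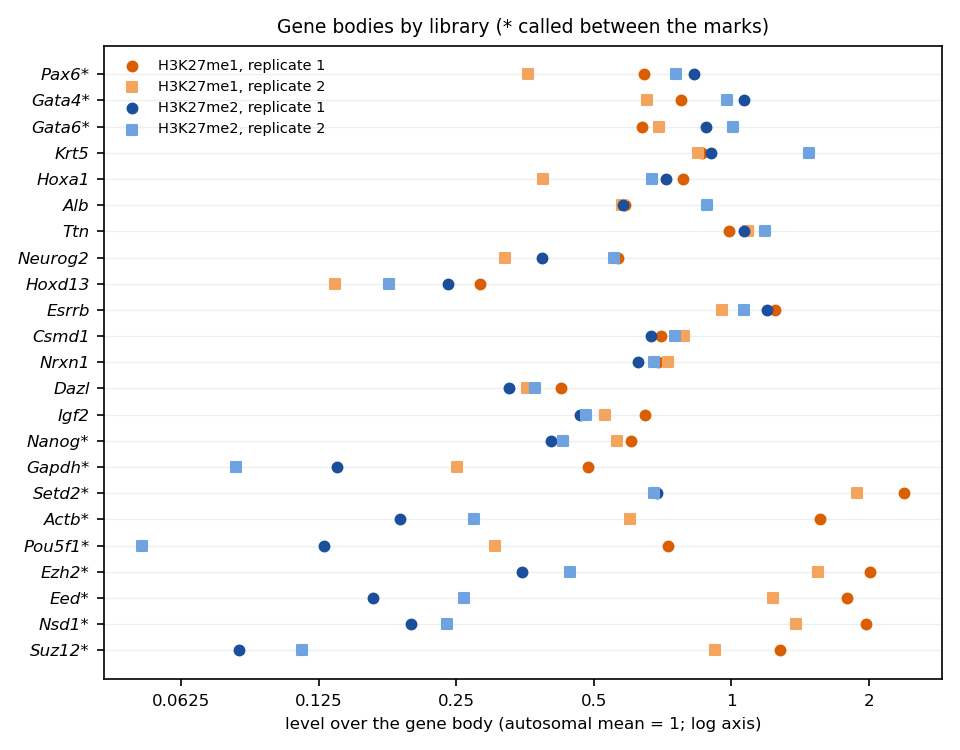
Level over the gene body (x axis, logarithmic, autosomal mean = 1) of each of the 4 libraries for single genes (y axis), with an asterisk where the marks were called different. Suz12, Eed, Nsd1 and Ezh2 show both H3K27me1 libraries far to the right of both H3K27me2 libraries, while for Esrrb, Ttn and Hoxd13 the libraries of the 2 marks overlap.

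Lists of heart and muscle, immune and liver genes lay towards H3K27me2. Among 31 heart and muscle structural genes 16 were higher in H3K27me2 and none in H3K27me1 (median 0.47), among 27 immune cell genes 14 and none (0.47), and among 26 liver genes 14 and 1 (0.47). Myl2, a myosin light chain of the heart, had H3K27me1 at 0.982 and 0.867 and H3K27me2 at 2.03 and 1.73. Cd79a, a chain of the B cell receptor complex, had H3K27me1 at 1.03 and 0.812 and H3K27me2 at 2.12 and 1.97. Ttn, which encodes titin, was not called, with H3K27me1 at 0.991 and 1.09 and H3K27me2 at 1.07 and 1.18, nor was Alb, which encodes albumin (0.28, limma adjusted p = 0.279). With libraries scaled to their median the counts higher in H3K27me2 were 6, 3 and 5 of these lists, beside 1269 of all bodies, and the list medians stayed above 0.

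Among most lists of developmental regulators, calls higher in H3K27me2 outnumbered those higher in H3K27me1, though not every list exceeded the 25.1% of all bodies. Formative and mesendoderm genes were higher in H3K27me2 in 9 of 16 bodies (median 0.60), among them Mixl1, a homeobox factor of the primitive streak, with H3K27me1 at 0.470 and 0.493 and H3K27me2 at 1.67 and 1.25. GATA and T-box genes gave 10 of 20 higher in H3K27me2 and 2 higher in H3K27me1, Wnt ligand genes 8 of 19 and none, Sox genes 5 of 14 and none, and Hox genes 7 of 27 and 1, a share of 25.9%. Tbx3, a T-box factor expressed in naive cells, was one of the 2, at 0.952 and 0.396 against 0.175 and 0.264 (-1.33), a call lost under median scaling (limma adjusted p = 0.0523) and quantile normalisation (limma adjusted p = 0.163). Under median scaling these counts higher in H3K27me2 became 4, 1, 1, 0 and 3 in the same order, beside 1269 of 17496 bodies, and the GATA and T-box list then had 1 call in each direction. The medians of these 5 lists stayed above 0. In the main setting, single pairs of an H3K27me2 and an H3K27me1 library gave Hox medians from -0.27 to 1.04. The same pairs gave medians above 0 in the rest of these lists. Genes of the Pax, Lhx, Nkx, Dlx and related homeobox families had a median of -0.01, which was 0.52 under quantile normalisation, with 11 of 42 (26.2%) higher in H3K27me2 and 4 higher in H3K27me1. Under median scaling this list had 4 calls in each direction. The shares of the Hox list and of this list are near that of all bodies. Of 8 proneural bHLH genes, 1 was higher in H3K27me2 and none in H3K27me1, with a median of -0.18 that was 0.38 under quantile normalisation.

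At some genes with very high H3K27me3 both lower forms were scarce. Nkx2-1, a homeobox factor of lung, thyroid and forebrain on chr12:56531935-56536908, had H3K27me3 at 12.6, with H3K27me1 at 0.717 and 0.392 and H3K27me2 at 0.218 and 0.175 (-1.25, limma adjusted p = 0.0016). Hoxd11, a homeobox gene of limb and trunk patterning, had H3K27me3 at 8.05, with H3K27me1 at 0.423 and 0.251 and H3K27me2 at 0.145 and 0.185 (-0.82, limma adjusted p = 0.0108). Both genes were thus higher in H3K27me1, although each of the 4 libraries was below the autosomal mean. The Nkx2-1 call was lost under quantile normalisation (limma adjusted p = 0.128), and the Hoxd11 call under median scaling (limma adjusted p = 0.0567), quantile normalisation (limma adjusted p = 0.910) and some other settings. Hoxd13, its neighbour, was at 0.282 and 0.135 for H3K27me1 and 0.240 and 0.178 for H3K27me2 and was not called.

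Among the large families, the Zfp zinc finger genes, most of which encode DNA-binding repressors, lay towards H3K27me1, higher in it in 190 of 373 bodies and in H3K27me2 in 35 (median -0.52, with 174 and 14 under median scaling and 185 and 69 under quantile normalisation). Vomeronasal receptor genes, used in pheromone sensing, were higher in H3K27me1 in 37 of 121 bodies and in H3K27me2 in none, with a median of -0.30. The first share, 30.6%, is near that of all bodies, and under quantile normalisation the counts were 13 and 18 and the median was 0.10. Olfactory receptor genes had 24 of 132 bodies higher in H3K27me1 and 7 higher in H3K27me2, with a median of -0.13. Under quantile normalisation the counts were reversed, 8 and 29, and the median was 0.22. All counts under quantile normalisation in this paragraph stand beside 4945 of 17496 bodies higher in H3K27me1 and 7020 higher in H3K27me2 in that setting. Most of the 352 vomeronasal and 1100 olfactory receptor genes are too short or too poor in reads to be tested, and related copies can share reads. Of 44 synaptic and neuronal adhesion genes limma called none in either direction (median -0.05), whereas under quantile normalisation 10 were higher in H3K27me2 (median 0.30), with library medians of 0.634, 0.705, 0.595 and 0.677. All of these lists were drawn up with earlier results of these data known. Over all bodies, scaling to the library median moved the median ratio by -0.10 and quantile normalisation by 0.20. Relative to the median of all bodies, the olfactory receptor list went from -0.20 to -0.05 under quantile normalisation and the vomeronasal list from -0.37 to -0.16, so both stayed below it. So did the imprinted list (-0.09 to -0.12) and the two-cell stage list (-0.20 to -0.23). The Pax and related list went from -0.08 to 0.25, the proneural list from -0.25 to 0.12 and the synaptic list from -0.11 to 0.03. The list medians over bodies given here kept their sign under both scalings except those stated.

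**Figure D5:**
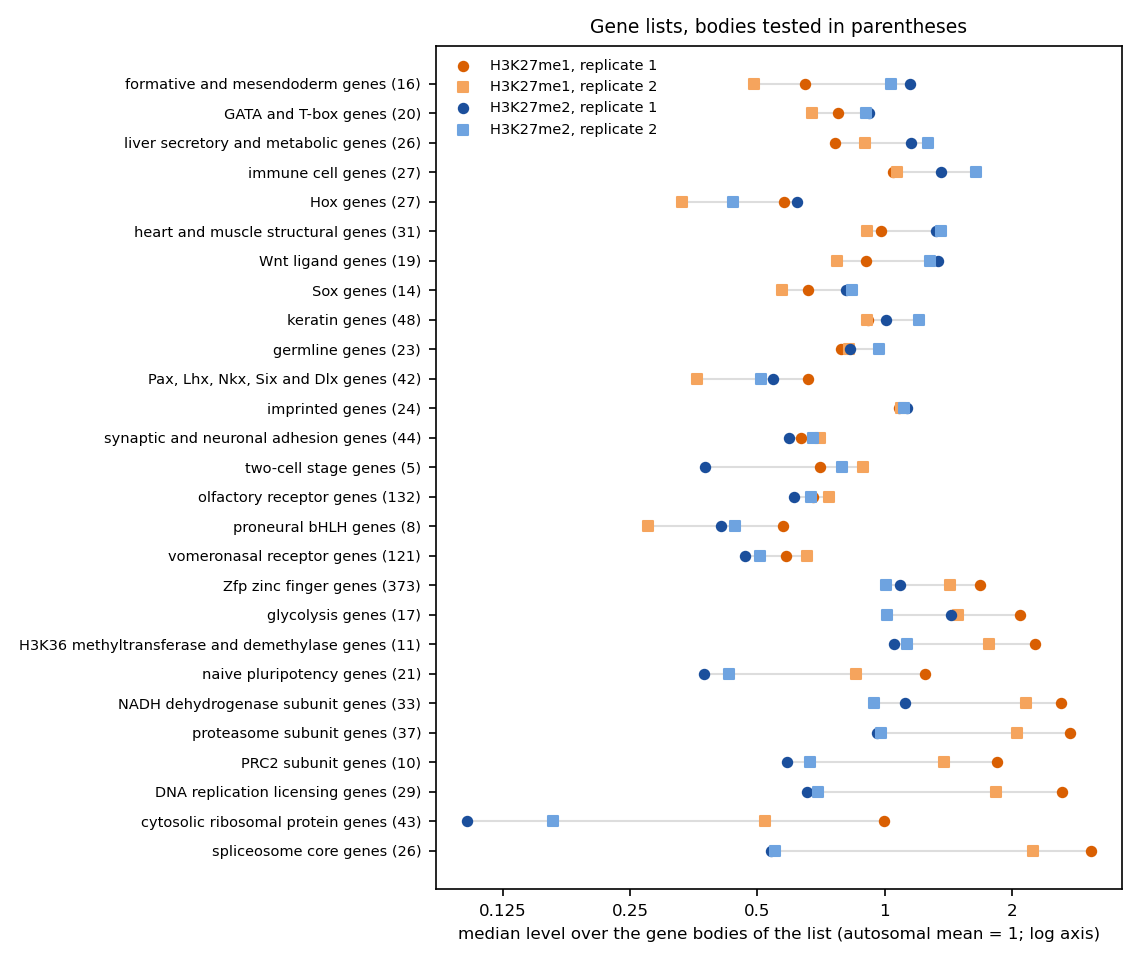
Median level over the gene bodies of each list (x axis, logarithmic, autosomal mean = 1) in each of the 4 libraries, with the number of bodies tested in parentheses. Spliceosome, ribosomal protein and replication licensing genes show the widest gap in favour of H3K27me1 (medians -2.16, -2.03 and -1.95), heart, immune and liver genes a smaller one in favour of H3K27me2 (0.47), and the signs of the Pax and Nkx, imprinted, proneural, olfactory, vomeronasal, synaptic and two-cell stage lists flip under quantile normalisation, which moved all bodies by 0.20.

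At promoters most calls ran towards H3K27me1. H3K27me1 was higher at 1565 of 16009 promoters (9.78%) and H3K27me2 at 117 (0.731%), and every call was at least 2-fold. Of all calls, 6.96% were higher in H3K27me2, a share that was lower under median scaling (16 and 1437 calls), 23.7% under quantile normalisation and 42.0% with promoters of 5 kb (2063 and 2852 calls). Without regard to the test, both H3K27me2 libraries lay above both H3K27me1 libraries at 4752 promoters and below both at 5112. With no filter on low levels limma called none in either direction (4374 at an unadjusted p under 0.05). Calls depended on single libraries, with none in either direction without H3K27me1 replicate 1 (5802 promoters had an unadjusted limma p under 0.05), 281 and 3332 without H3K27me1 replicate 2, 0 and 444 without H3K27me2 replicate 1, and 1 and 584 without H3K27me2 replicate 2. Each promoter rests on 2 windows, and the median standard error was 0.40, against 0.18 at bodies.

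The promoters higher in H3K27me1 had little H3K27me3 and more CG dinucleotides than all tested promoters. They held a median of 21 CG dinucleotides in 300 bases and 54.6% of them held 20 or more, against 14 and 38.2% over all tested promoters, and their median H3K27me3 was 0.0557. The promoters higher in H3K27me2 held a median of 9, with H3K27me3 at 2.87. Across all 16009 promoters, though, CG number and the ratio were only weakly related (Spearman -0.179), and the ratio followed H3K27me3 (0.751) as at bodies. In the lowest tercile of H3K27me3, the share called higher in H3K27me1 was 9.06% at 0 to 2 CG and 25.2% at 3 to 5. At 6 to 11, 12 to 19, 20 to 29 and 30 or more it was 32.4%, 34.0%, 33.4% and 26.5%. Over all promoters with 30 or more CG, the H3K27me1 libraries lay on either side of both H3K27me2 libraries (1.25 and 0.609 against 0.847 and 0.739). Called promoters mostly shared the direction of their own gene body. Some promoters share windows with that body, since not every annotated start lay at the gene boundary. Of 16457 starts, 9841 lay there and 1646 lay over 1000 bp inside the gene. Smaller shifts inside the gene can share a window too. Where the promoter was higher in H3K27me1 and the body was tested, 1228 bodies were also higher in H3K27me1, 16 were higher in H3K27me2 and 224 were not called. Where the promoter was higher in H3K27me2, the numbers were 2, 70 and 35. Of the promoters not called, 3337 had a body higher in H3K27me2, 2971 a body higher in H3K27me1 and 6042 a body that was not called either.

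Among single promoters, Ccnb2 (-3.31 ± 0.40 SE, limma adjusted p = 0.0146) and Get4, which acts in the insertion of tail-anchored membrane proteins (1.90 and 1.33 against 0.128 and 0.123, -3.23), stood at the H3K27me1 end. At the H3K27me2 end were Vcan (2.17 ± 0.46, limma adjusted p = 0.0211) and Kcnmb2, a potassium channel subunit (0.470 and 0.406 against 1.64 and 1.56, 1.76). Kcnmb2 had H3K27me3 at 3.39 and Vcan at 1.22. The Setd2 promoter was higher in H3K27me1, at 1.67 and 0.986 against 0.282 and 0.431 (-1.74, limma adjusted p = 0.0304). The Ezh2 promoter was not called, at 0.752 and 0.406 against 0.103 and 0.246 (limma adjusted p = 0.063), although its body was. At the Pou5f1 promoter the H3K27me2 libraries held 1 and 2 reads and the H3K27me1 libraries 31 and 8, a call that rests on a handful of reads. Promoters of the replication-dependent histone genes, only 3 of which had a body that was tested, were higher in H3K27me1 in 17 of 52 and in H3K27me2 in none, beside 9.78% and 0.731% of all promoters. Their median levels were low, at 0.564 and 0.247 for H3K27me1 and 0.0770 and 0.103 for H3K27me2, the latter only a few reads.

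Between genes the difference was smaller and depended on distance. H3K27me1 was higher in 10431 of 91993 intergenic bins (11.3%) and H3K27me2 in 9858 (10.7%), with 192 and 0 of them at 4-fold or more. Of all calls, 48.6% were higher in H3K27me2, and 31.7% with libraries scaled to their median, which called 17333 bins higher in H3K27me1. The fit of all 10 untreated libraries called 2860 bins higher in H3K27me2 and 4470 higher in H3K27me1, and with no filter on low levels limma called none (27409 at an unadjusted p under 0.05). Bins 1 to 10 kb from a gene had a median log2 ratio of 0.13, with H3K27me1 at 0.837 and 0.928 and H3K27me2 at 0.940 and 1.01. For single pairs of an H3K27me2 and an H3K27me1 library the median log2 ratio ran from -0.0027 to 0.26. The 221 bins at 500 kb or more had a ratio of -0.25, with H3K27me1 at 0.602 and 0.638 and H3K27me2 at 0.472 and 0.526, and 19.5% of them were called higher in H3K27me1 and none in H3K27me2. Both marks thinned out with distance, H3K27me2 the more. Without H3K27me1 replicate 1 the bins higher in H3K27me2 numbered 5231, and without H3K27me2 replicates 1 and 2 in turn they numbered 4261 and 4431; the bins higher in H3K27me1 numbered 6270 without H3K27me2 replicate 1.

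The bins higher in H3K27me2 lay in chromatin marked by the other forms. They had a median H3K27me3 level of 1.78 and a median H3K36me2 level of 1.97 and lay a median of 10.7 kb from the nearest gene. The bins higher in H3K27me1 had H3K27me3 at 0.140 and H3K36me2 at 0.325 and lay 32.9 kb away. Over all tested bins these medians were 0.453, 0.387 and 29.6 kb, and over bins not called 0.454, 0.320 and 34.0 kb. Of these values, only the H3K27me3 level set the bins higher in H3K27me1 well apart from bins not called. Over all bins both forms rose with H3K36me3 (Spearman 0.748 for H3K27me1 and 0.809 for H3K27me2 over 91993 bins). The log2 ratio rose with it too (0.390), whereas over gene bodies it fell (-0.336). Median H3K36me3 was 0.938 in bins higher in H3K27me2, 0.377 in those higher in H3K27me1 and 0.246 over all tested bins. The largest excess of H3K27me1 lay in 3 adjacent bins at chr10:83400001-83430000, 31166 to 51166 bp from the gene D10Wsu102e. The middle bin had H3K27me1 at 3.95 and 2.30 and H3K27me2 at 0.329 and 0.251 (log2 ratio -3.18). Its H3K36me3 level of 6.61 was far above the median of 0.377 over bins higher in H3K27me1, and above the median of 2.09 over gene bodies. The largest excess of H3K27me2 lay at chr8:126660001-126670000, 66015 bp from Irf2bp2, a transcriptional corepressor gene, with H3K27me1 at 0.672 and 0.708 and H3K27me2 at 2.26 and 2.06 (1.58).

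Across the autosomes in 10 kb steps, genes included, 36.3% of 235975 bins had both H3K27me2 libraries above both H3K27me1 libraries, 27.6% had the reverse order, and in 36.1% the libraries overlapped. These are counts of order, with no test. The longest unbroken run with H3K27me2 above was 760 kb, and the longest with H3K27me1 above was 570 kb.

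The authors' deposited peak lists, 1 for each mark and made from the same libraries, showed similar surroundings. The H3K27me1 peaks covered 514.7 Mb of autosomal sequence and the H3K27me2 peaks 707.4 Mb. They shared 310.8 Mb, which is 60.4% of the H3K27me1 and 43.9% of the H3K27me2 sequence. The 203.9 Mb in H3K27me1 peaks alone lay 63.8% in protein-coding genes, 28.5% in H3K36me2 peaks and 1.20% in H3K27me3 peaks. The 396.6 Mb in H3K27me2 peaks alone lay 48.5% in genes, 82.5% in H3K36me2 peaks and 57.4% in H3K27me3 peaks. The shared 310.8 Mb lay 60.9% in genes, 83.7% in H3K36me2 peaks and 18.2% in H3K27me3 peaks. Over whole autosomes these shares were 40.0%, 32.0% and 22.3%. H3K27me1 peaks had a median width of 7.5 kb and H3K27me2 peaks of 10.5 kb.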

How the data were processed

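ChIP-seq libraries of untreated E14 cells were analysed from the tracks that the authors deposited as log2(1 + RPM), RPM being reads scaled to the mapped total, in 1 kb windows every 500 bp. Trim Galore 0.4.2, Bowtie2, SICER, mm10 and dm3 are named in the submitters' processing notes; read extension and duplicate treatment are not given in the sources used here. The authors' peak lists carry a score per peak whose scale is not given; it was used only to take the peaks above the median score of each list. Whole reads were recovered for 100% of windows (tolerance 0.02).

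Tracks were made linear, averaged over non-overlapping windows and divided by the library's autosomal mean. Starts and strands came from a RefSeq promoter table (GRCm38.p6), which matched 16457 of 20665 autosomal protein-coding genes, and promoters on chromosome 18 were not analysed here; the 3587 bodies without a strand were trimmed by 1 kb at both ends. The level + 0.05 was fitted on the log2 scale in limma 3.58.1 (lmFit and eBayes, R 4.3.3) over the 4 libraries without a replicate block, with Benjamini-Hochberg adjustment over each feature class. In intergenic bins limma's shared spread dominates the test, so no p-value is printed there. Python 3.11.15, numpy 2.4.6, pandas 2.3.3 and bedtools 2.31.1 did the rest.

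Genes named are the 10 bodies and 10 promoters with the largest ratio in each direction, called, not overlapping and with the higher mark at a level of 1 or more, the 3 such bins, the ends of 29 lists and a set of single genes; the text gives a selection of them. Members and lists were chosen with earlier results of these data known. On simulated data the fit recovered 138 of 200 bodies changed 2-fold and 200 of 200 changed 4-fold, 0 and 89 of 200 promoters, and 106 and 200 of 200 bins. False calls numbered 12 and 8 for bodies, 0 and 3 for promoters and 3 and 18 for bins. The simulation gave both marks and all features of a class the same spread and changed only 200 features. The data differ in both respects, so these numbers do not measure recovery or false calls in the real fit.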

Additional observations from a re-analysis of the deposited data

How the results depend on the processing

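Counts of calls are given as higher in H3K27me2 and then higher in H3K27me1, by limma at an adjusted p under 0.05. At promoters (117 and 1565) the H3K27me2 count was 43 with 0.01 added on the log scale, 370 with 0.25, 16 with scaling to the library median, 518 with limma-voom on recovered reads and 599 with all 10 untreated libraries fitted. Quantile normalisation gave 317 and 1019, promoters of 5 kb gave 2063 and 2852, and leaving out each library in turn gave 0 to 281 and 0 to 3332, the lone library of a mark being assumed to vary like those of the other. With no filter on low levels there were 0 and 0 calls at promoters and 0 and 0 at intergenic bins, with 4374 promoters and 27409 bins at an unadjusted p under 0.05. At bodies (4395 and 5119) the H3K27me2 count was 1269 with median scaling, 7020 with quantile normalisation and 1058 to 4337 without each library, and the H3K27me1 count stayed within 1.5 times in every setting run. At bins (9858 and 10431) the fit of all 10 libraries gave 2860 and 4470, median scaling raised the H3K27me1 count to 17333, bins at least 10 kb from genes gave 4718 higher in H3K27me2, and leaving out each library gave 4261 to 11560 and 6270 to 9250. The cause was not tested, except that the last 2 settings use fewer bins or fewer libraries. Body ends cut by 1 kb on both sides, chosen after seeing the data, gave 4351 and 4980.

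The replicate numbers were not established as pairs. A replicate block gave 340 and 2020 promoters, 5450 and 5543 bodies, and 15117 and 15106 bins; deviations of same-numbered libraries correlated at 0.192, 0.258 and 0.199 over the 3 classes. The class mean in place of the median gave -0.19 at bodies (exact permutation p = 0.333, the smallest possible). The shared peak sequence was 52.2% of H3K27me1 and 37.3% of H3K27me2 for peaks above the median score, and 65.7% and 59.7% of peaks were touched by 1 bp. Among named features 135 were called, 70 of them in every setting, and over 1882 combinations of call and setting 204 were lost. The only reversal was the Nanog body, at 0.049 under quantile normalisation. At promoters, 1 read in 2 windows is a level of 0.0205 to 0.0290, and the median SD between replicates was 0.41 for H3K27me1 and 0.21 for H3K27me2 on the log2 scale; the part of depth in this was not tested.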

Other observations

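Chromosome X, left out of the tests above, gave fewer reads per window than the autosomes in every library. E14 cells are male and carry a single X, and without an input library its copy number and the level of a mark cannot be told apart. Its level relative to the autosomal mean was 0.400 and 0.399 for H3K27me1 and 0.313 and 0.326 for H3K27me2, so the libraries of the 2 marks did not overlap. The 6 libraries for the other marks lay between 0.186 and 0.240.

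Germline genes, silent in most cells, were higher in H3K27me2 in 7 of 23 bodies and in H3K27me1 in 2 (median log2 ratio 0.25), and keratin genes of epithelia in 11 of 48 and 1 (median 0.26). Under median scaling the H3K27me2 counts were 2 and 4, beside 1269 of all 17496 bodies. Of the 24 imprinted genes tested, 5 (20.8%) were higher in H3K27me1 and 1 in H3K27me2. Beside the 25.1% and 29.3% of all bodies, the keratin share towards H3K27me2 (22.9%) and the imprinted share towards H3K27me1 were not higher. The germline share towards H3K27me2 (30.4%) was near that of all bodies. Ube3a, a ubiquitin ligase imprinted in neurons, had H3K27me1 at 0.663 and 0.544 and H3K27me2 at 0.119 and 0.154, with H3K36me3 at 0.506 and H3K27me3 at 0.0126. It was thus higher in H3K27me1 without a high H3K36me3 level. The same call was made for 394 of the 958 bodies low in both H3K36me3 and H3K27me3. Gene bodies of 500 kb or more were seldom called, in 4.19% of 215 towards H3K27me2 and 1.40% towards H3K27me1.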
